A study of Mus musculus with 6 samples.

Results

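The genes described are 7 intermediate filament genes of C2C12 myoblasts, a mouse muscle precursor line: the neurofilament subunits Nefl, Nefm and Nefh, vimentin (Vim), desmin (Des), nestin (Nes) and synemin (Synm). They were picked by symbol, with earlier results of these data in view, and each was found as 1 row among the 22988 rows used of the RNA tables. Polyadenylated RNA was sequenced, with 1 sample, treated here as 1 library, for each of 3 conditions. The starved library came from cells given the siRNA called siNS and kept in Hank's balanced salt solution, which holds no serum or amino acids, for 4 h. The knockdown library came from non-starved cells given siRNA against Foxk1, a forkhead transcription factor. The control library came from non-starved cells given siNS. All 3 share 1 cell line, labelled strain C3H, which is ordinarily grown in medium with fetal bovine serum. The design text sets starvation and Foxk1 depletion each against the non-starved control. Regions bound by Foxk1 and Sin3A were not placed at these genes, since no gene annotation of the regions' genome build was used here.

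Intermediate filaments are rope-like polymers that give cells mechanical strength and position organelles. Vimentin is the filament protein of mesenchymal and precursor cells, desmin that of muscle, where it links Z-discs to one another and to the membrane. Nestin and synemin are large proteins that need vimentin or desmin as a partner to be built into filaments. Neurofilaments are known as the filaments of axons, where the light chain forms the core and the medium and heavy chains carry long side arms.

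Values are the authors' mean FPKM, a level per transcript length, with a 95% interval in brackets. The mean lay above its own upper limit in 340 rows of the starved, 289 of the knockdown and 353 of the control library, none of them a member. Whether a mean pools replicates is not stated. With 1 sample per condition, no spread between replicates is available and no test was possible. A statement that intervals do not overlap compares libraries, not conditions. Fold changes are log2((FPKM + 1)/(control FPKM + 1)), and a row is called expressed in a comparison when either of the 2 libraries reaches 1 FPKM. Both comparisons use the same control library. FPKM summed to 527673 in the starved, 562498 in the knockdown and 566803 in the control library, and read depth is unknown. Foxk1 stood at 16.1 FPKM (13.3 to 18.9) in the starved, 5.15 FPKM (4.29 to 6.02) in the knockdown and 9.09 FPKM (7.76 to 10.4) in the control library, so its transcript was lower, not absent, in the knockdown. The myoblast label was checked on Myod1, Myf5, Pax7, Cdh15, Itga7 and Chrna1, which were all expressed in every library, at 7.92 FPKM (Pax7) to 137 FPKM (Chrna1) in the control. Ncam1, also on the myoblast list, had 2 rows and was left out. In these bulk samples, fewer cells of a type and less RNA per cell cannot be told apart.

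Of the 7 genes, 5 were expressed. Set against the control, 3 of the 5 were lower with intervals apart in the starved library (Nefl, Nefm and Nes), where 10.9% of 11396 expressed rows were lower apart and 12.2% higher apart. In the knockdown library 3 of the 5 were also lower apart (Nefl, Nefm and Vim), where 7.13% of 11357 expressed rows were lower apart and 8.89% higher apart. None of the 5 was higher apart in either comparison. At 2-fold or more, 3 were lower in the starved library, where 3% of all expressed rows were at least 2-fold lower and 3.12% higher. In the knockdown library 2 were lower, where 1.45% of all expressed rows were at least 2-fold lower and 2.61% higher. The genes were picked with these changes known, so nothing is read from the counts. The members did not share 1 pattern: both expressed neurofilament genes were lower in both comparisons, nestin was lower in the starved library, vimentin was lower in the knockdown library, and the desmin intervals overlapped throughout.

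**Figure D1:**
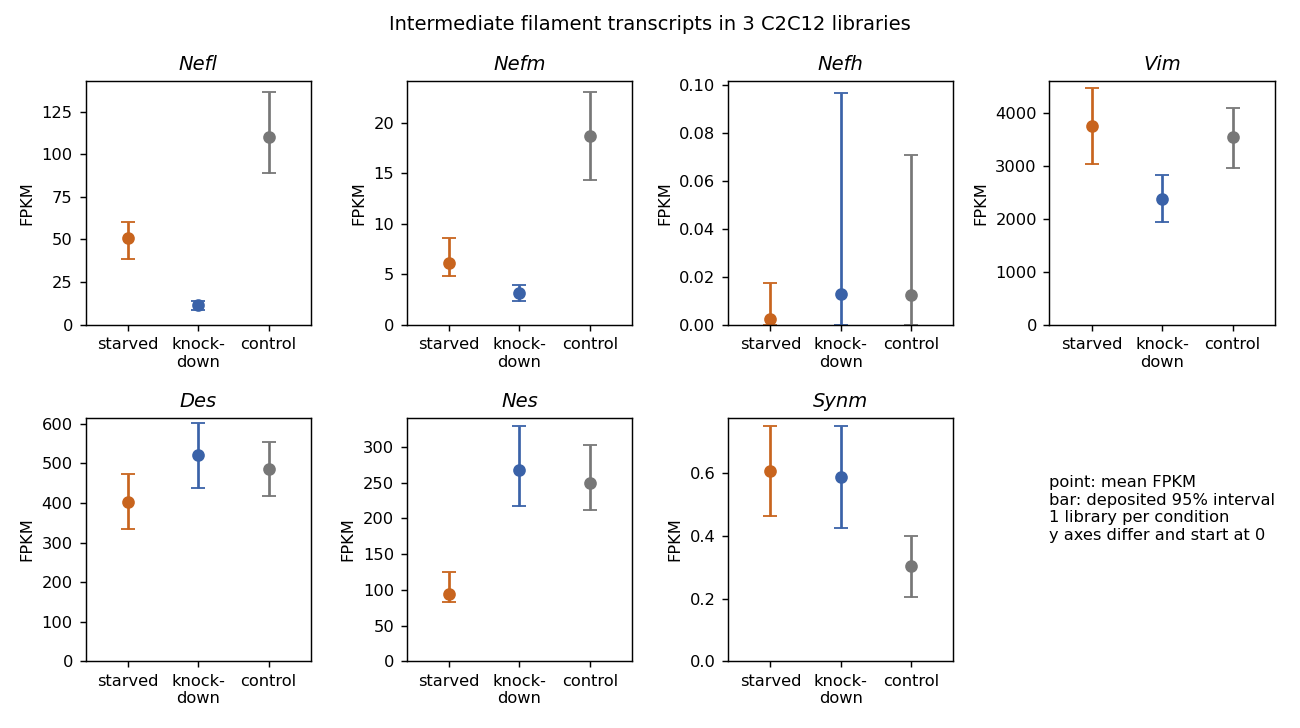
FPKM (y axes, each starting at 0) of the 7 intermediate filament genes in the starved, Foxk1 knockdown and control libraries; points are the authors' means and bars their 95% intervals, with 1 library per condition. Nefl and Nefm are lowest in the knockdown and highest in the control library, Nes is low in the starved library, and Nefh lies near 0 in all 3.

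Nefl encodes the neurofilament light chain, the core subunit of the neuronal filament. It stood at 50.7 FPKM (38.7 to 60.0) in the starved, 11.4 FPKM (8.51 to 14.2) in the knockdown and 109.9 FPKM (89.0 to 137) in the control library. No interval overlapped another, and the order was control, then starved, then knockdown. The starved level was 0.462 times the control, with 0.283 to 0.674 from the ends of the intervals, a log2 fold change of -1.10. The knockdown level was 0.103 times the control (0.0623 to 0.160 from the interval ends), a log2 fold change of -3.17. Among all expressed rows, 24 had a lower fold change than Nefl in the knockdown comparison and 274 in the starved comparison. Ranked by FPKM among all rows, Nefl was number 6410 in the knockdown and number 794 in the control library. With the libraries scaled to equal summed FPKM, the starved fold change was -0.998, just short of 2-fold.

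Nefm encodes the medium chain, which assembles with the light chain. It stood at 6.11 FPKM (4.78 to 8.53) in the starved, 3.15 FPKM (2.33 to 3.96) in the knockdown and 18.7 FPKM (14.3 to 23.1) in the control library. The order was the same as for Nefl, and again no intervals overlapped. The log2 fold changes were -1.47 in the starved library, a ratio of 0.327 (0.207 to 0.595 from the interval ends), and -2.25 in the knockdown library, a ratio of 0.168 (0.101 to 0.276). Nefl was 8.30 times as abundant as Nefm in the starved, 3.61 times in the knockdown and 5.87 times in the control library, so the light chain outnumbered the medium chain in all 3. In the RefSeq annotation (assembly GRCm38.p6) Nefl and Nefm lie next to each other on chromosome 14, with only the pseudogene Gm19216 between them. Nefh, the heavy chain gene, lies elsewhere, on chromosome 11, and stood at 0.00258, 0.0129 and 0.0122 FPKM in the starved, knockdown and control libraries. The lower limit of Nefh was 0 in all 3 libraries and the highest upper limit 0.0966 FPKM. The myoblasts thus held transcripts of the light and medium chains at levels well above those of the heavy chain.

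Neurofilament transcripts are usually read as a sign of neurons, so neuronal markers were set beside them. Of 12 listed neuron markers, 8 were under 1 FPKM in all 3 libraries. Elavl4 was listed at 0 in every library and Snap25 at 0 in the knockdown library. Syt1, Rbfox3, Elavl3, Dcx and Syp, which mark synapses, mature or newborn neurons, did not exceed 0.161 FPKM (Syp in the control), and the tau gene Mapt did not exceed 0.405 FPKM. The other 4 were expressed: Tubb3 at 52.6 FPKM in the starved, 68.3 FPKM in the knockdown and 89.7 FPKM in the control library, Stmn2 at 42.1, 89.6 and 57.2 FPKM, Gap43 at 25.4, 34.6 and 37.1 FPKM, and Map2 at 4.45, 3.63 and 3.26 FPKM. The summed level of the list was 125 FPKM in the starved, 197 FPKM in the knockdown and 188 FPKM in the control library. Among the starved values Tubb3 (log2 fold change -0.76) and Gap43 (-0.53) were lower apart and 0 of the 4 higher apart, beside 10.9% and 12.2% of all expressed rows. In the knockdown library Stmn2, a tubulin-binding growth protein, was higher apart (0.64) and 0 of the 4 were lower apart, beside 8.89% and 7.13% of all expressed rows. The sum was lower in the starved library than in the control. In the knockdown library the sum was close to the control, with Stmn2 higher, and Tubb3 and Gap43 lower in mean with overlapping intervals. The part of these markers in the Nefl and Nefm levels was not tested. Of 7 glial markers, Sox10 and Foxd3 were listed at 0 in all 3 libraries, and the summed level of the list was 2.45, 1.44 and 1.15 FPKM in the starved, knockdown and control libraries, with Mbp at 2.00 FPKM in the starved library the only value over 1 FPKM.

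**Figure D2:**
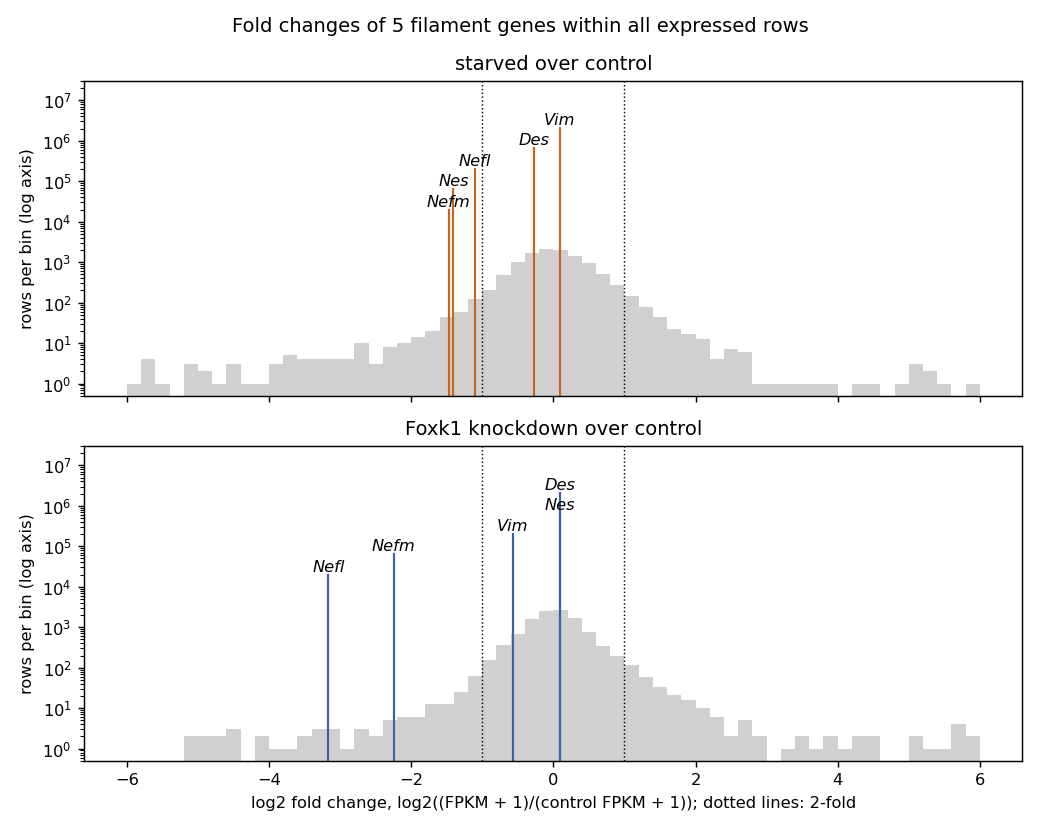
Log2 fold changes over the control (x axis) of all expressed rows (grey bars, rows per bin on a log axis) for the starved (top) and Foxk1 knockdown library (bottom), with the 5 expressed filament genes as lines whose heights only separate the labels; 13 and 14 rows lie beyond 6 log2 units and are not drawn. Nefl at -3.17 and Nefm at -2.25 lie in the sparse lower tail of the knockdown comparison, while Nes and Des lie at its centre.

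Nestin is a marker of dividing precursor cells, among them muscle precursors. Nes stood at 93.8 FPKM (83.5 to 125) in the starved, 268 FPKM (218 to 328) in the knockdown and 250.1 FPKM (212 to 303) in the control library. The starved library alone was low, with its interval apart from both others, while those of the knockdown and the control overlapped. The log2 fold changes were -1.41 in the starved library (ratio 0.375, 0.276 to 0.589 from the interval ends) and 0.10 in the knockdown library (ratio 1.07, 0.718 to 1.55). Among expressed rows 158 had a lower fold change than Nes in the starved comparison.

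Vimentin was by far the most abundant of the 7. Vim stood at 3765 FPKM (3047 to 4479) in the starved, 2385 FPKM (1934 to 2834) in the knockdown and 3544 FPKM (2969.8 to 4097) in the control library. By FPKM it ranked number 6 of all rows in the starved, 21 in the knockdown and 7 in the control library. The knockdown library was low, its interval apart from both others, and those of the starved and the control overlapped. The log2 fold changes were 0.09 in the starved library and -0.57 in the knockdown library (ratio 0.673, 0.472 to 0.954 from the interval ends), short of 2-fold. Desmin, the muscle filament protein, was next. Des stood at 403 FPKM (333 to 473) in the starved, 520.0 FPKM (438 to 602) in the knockdown and 485 FPKM (418 to 553) in the control library, and all 3 intervals overlapped one another. The log2 fold changes of Des were -0.27 (starved) and 0.10 (knockdown), with ratios of 0.830 (0.603 to 1.13 from the interval ends) and 1.07 (0.793 to 1.44).

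Synemin, which ties filaments to the membrane through dystrobrevin and vinculin, was hardly expressed. Synm stood at 0.606 FPKM (0.464 to 0.748) in the starved, 0.587 FPKM (0.425 to 0.749) in the knockdown and 0.302 FPKM (0.205 to 0.399) in the control library. Both intervals lay above that of the control and overlapped each other. Under 1 FPKM everywhere, Synm was left out of the counts, and its fold changes of 0.30 and 0.28 in the starved and knockdown libraries are held down by the added 1 FPKM, the plain ratios being 2.00 and 1.94.

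The 250 bases before the RefSeq start site (build GRCm38.p6, plus strand) are shown for Des, Nes and Vim, the expressed members found in the promoter table, because each had a pattern of its own: Des intervals overlapped throughout, Nes was low in the starved and Vim in the knockdown library. Capitals mark any match, on either strand, to the motifs searched: the E-box (CANNTG) bound by MyoD and myogenin, the forkhead core (TAAACA), the AP-1 site (TGANTCA), the TATA box (TATAAA) and the CArG box bound by SRF. No matches overlapped.
Des, chr1:75360042-75360291: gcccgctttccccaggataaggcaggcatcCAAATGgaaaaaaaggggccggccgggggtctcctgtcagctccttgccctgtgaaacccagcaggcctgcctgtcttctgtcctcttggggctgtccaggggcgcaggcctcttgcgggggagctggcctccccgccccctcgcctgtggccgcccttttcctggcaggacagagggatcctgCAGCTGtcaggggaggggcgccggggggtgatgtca
Nes, chr3:87970843-87971092: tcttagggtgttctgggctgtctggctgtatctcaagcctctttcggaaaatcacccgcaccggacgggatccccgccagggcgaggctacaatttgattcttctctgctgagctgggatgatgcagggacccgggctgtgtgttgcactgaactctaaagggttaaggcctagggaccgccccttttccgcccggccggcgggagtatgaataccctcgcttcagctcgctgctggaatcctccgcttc
Vim, chr2:13574061-13574310: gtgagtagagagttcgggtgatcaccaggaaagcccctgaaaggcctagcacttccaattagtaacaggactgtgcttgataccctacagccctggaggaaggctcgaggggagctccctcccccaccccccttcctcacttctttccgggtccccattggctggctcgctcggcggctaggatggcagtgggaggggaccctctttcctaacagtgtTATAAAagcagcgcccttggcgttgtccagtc

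The Des window held 2 E-boxes, beginning 220 and 36 bases before the start, and 2 or more E-boxes were found in 31.8% of 32851 promoter windows. The Vim window held 1 TATA box, beginning 32 bases before the start, a motif found in 12.4% of all promoter windows. In the Nes window these letters were not found. The forkhead core, found in 12.03% of all windows, the AP-1 site, in 6.75%, and the CArG box, in 1.47%, were in none of the windows of Des, Nes, Vim and Synm. In Synm 1 E-box was found, a motif present in 66.2% of all windows. The GC content was 67.2% for Des, 58.8% for Nes and 58.4% for Vim, beside a median of 52.4% over all promoters. Of the 7 genes, 4 matched the promoter table, and Nefl, Nefm and Nefh did not.

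The makeup of the filament transcripts differed between libraries. The 7 genes summed to 4319 FPKM in the starved, 3187 FPKM in the knockdown and 4408 FPKM in the control library, which is 0.818%, 0.567% and 0.778% of all FPKM. Vim made up 87.2% of that sum in the starved, 74.8% in the knockdown and 80.4% in the control library. Des made up 9.33%, 16.3% and 11.01%, and Nes 2.17%, 8.40% and 5.67%. The neurofilament genes together made up 1.32% in the starved, 0.455% in the knockdown and 2.92% in the control library. The shares of Des and Nes were largest in the knockdown library, where Vim was lower and their own levels were 1.07 times the control with overlapping intervals. The ratio of Vim to Nes was 40.1 in the starved, 8.91 in the knockdown and 14.2 in the control library, and that of Vim to Des 9.35, 4.59 and 7.30.

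**Figure D3:**
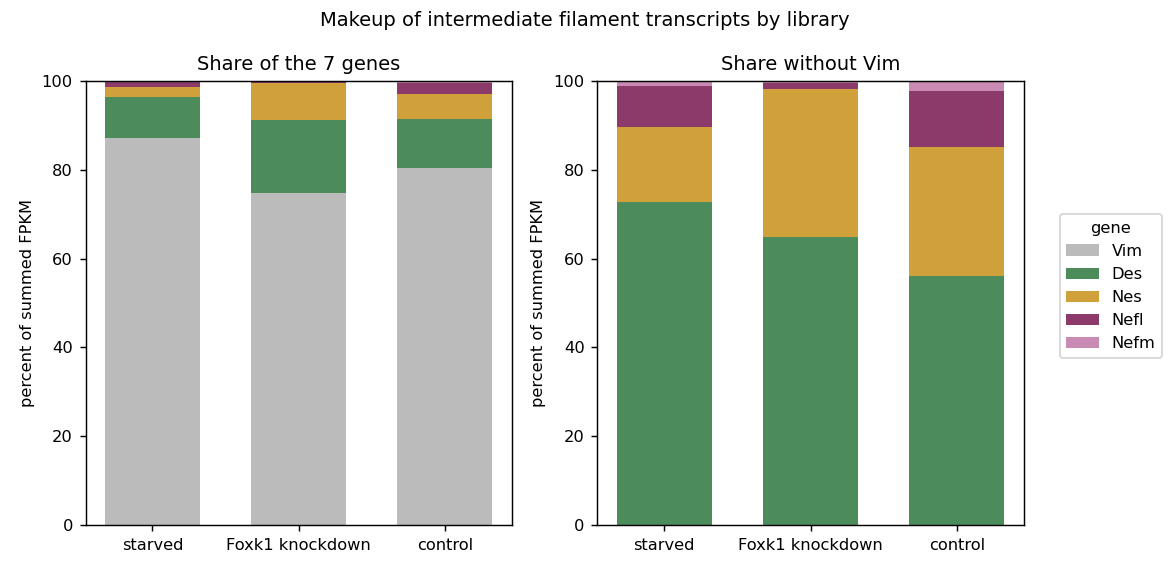
Share of each gene in the summed FPKM of the 7 intermediate filament genes (left, percent) and in the sum without Vim (right) for the starved, Foxk1 knockdown and control libraries, 1 library each; Nefh and Synm are too small to see. Without Vim, the neurofilament genes hold 10.3% in the starved, 1.81% in the knockdown and 14.9% in the control library.

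Rows with the most similar pair of fold changes were looked up for each expressed member among 8958 single-gene rows that reached 5 FPKM in any library, by the straight-line distance between the pairs. These are descriptions of 3 libraries. The closest to Nefl was Sprr1a, a cornified envelope protein gene, at a distance of 0.06, and it was the only row within 0.5 log2 units. Sprr1a stood at 41.5 FPKM in the starved, 8.67 FPKM in the knockdown and 89.5 FPKM in the control library, close to Nefl in each. Next came the granzyme gene Gzmd (distance 0.72), 1700012B09Rik (0.85), the proliferin gene Prl2c2 (0.88), whose reads cannot be told with certainty from those of its near-identical copies, and Nefm itself (0.99). The closest to Nefm were A230070E04Rik (0.28), the Wnt antagonist gene Dkk2 (0.39) and 1700012B09Rik (0.48), the only 3 rows within 0.5 log2 units of it, followed by Gzmd (0.56) and Igsf5 (0.58). Nefl and Nefm lay outside each other's radius of 0.5. The number of rows within that radius depends on how far a gene lies from 0, where most rows are, and was 132 for Nes, 1866 for Vim and 4469 for Des. The closest to Nes were Trmt61a, the tubulin gene Tubb6, Fhl3, Rasl11a and the urokinase gene Plau, with distances of 0.04 to 0.09. For Vim they were the condensin gene Ncapd2, the replication helicase gene Mcm7, Slc12a2, Plp2 and D030056L22Rik, and for Des they were Etfb, Znrd1, Rprd1a, 2900026A02Rik and Tor2a.

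**Figure D4:**
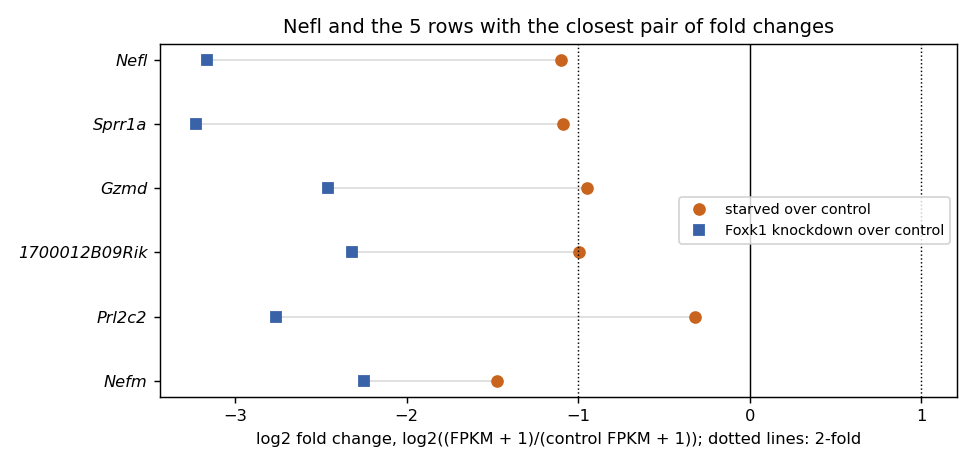
Log2 fold changes over the control (x axis) of Nefl and the 5 rows most like it, in the starved (circles) and Foxk1 knockdown library (squares). Sprr1a lies on Nefl in both comparisons (-1.09 and -3.23), while Prl2c2 is at -0.32 in the starved library.

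Sprr1a is also known as a gene that injured neurons switch on as they regrow, so a list of such genes was set beside Nefl. Of 13 listed genes 9 were expressed, and Gap43, Stmn2 and Tubb3 also stand in the neuron list. Against the control, starved cells had 2 higher apart and 5 lower apart (median log2 fold change -0.53), and knockdown cells had 3 higher apart and 2 lower apart (median -0.10). Over all expressed rows, 12.2% were higher and 10.9% lower apart in the starved library, and 8.89% and 7.13% in the knockdown library. Sprr1a itself, the gene that brought in the list, is 1 of those lower apart in each comparison. Over all expressed rows the median was -0.01 for starvation and 0.02 for the knockdown. Atf3, a stress-induced transcription factor, was at 17.1 FPKM in the starved, 3.32 FPKM in the knockdown and 9.92 FPKM in the control library, lower apart in the knockdown as Nefl was but higher apart in the starved library. Sox11 (-0.83 in the starved, 0.93 in the knockdown) and Gadd45a (3.10 and 0.69) were both higher apart in the knockdown library.

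The other intermediate filament genes were mostly silent. Of 21 further cytoplasmic filament genes listed, 20 were found and 15 of these were under 1 FPKM in all 3 libraries, among them the neuronal filament genes Prph and Ina and the glial Gfap. Prph, whose protein assembles with neurofilaments, was at 0.981 FPKM in the starved, 0.182 FPKM in the knockdown and 0.873 FPKM in the control library, and its interval in the knockdown library was lower apart. The keratin gene Krt19 was at 21.3 FPKM (17.6 to 25.0) in the starved, 8.30 FPKM (6.41 to 10.2) in the knockdown and 33.3 FPKM (27.1 to 39.4) in the control library, lower apart in both comparisons like Nefl and Nefm. Krt14, a basal epithelial keratin, was at 3.25, 14.2 and 6.11 FPKM, lower apart in the starved and higher apart in the knockdown library. The keratin genes Krt80 and Krt10 and the syncoilin gene Sync had overlapping intervals in both comparisons. The lamins, which form the nuclear counterpart of these filaments, were all lower apart in the starved library, with log2 fold changes of -1.30 for Lmnb1, -0.77 for Lmnb2 and -0.56 for Lmna, where 10.9% of all expressed rows were lower apart. In the knockdown library Lmnb1 (-0.94) and Lmnb2 (-0.49) were lower apart and the Lmna intervals overlapped (-0.34), where 7.13% of all expressed rows were lower apart.

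**Figure D5:**
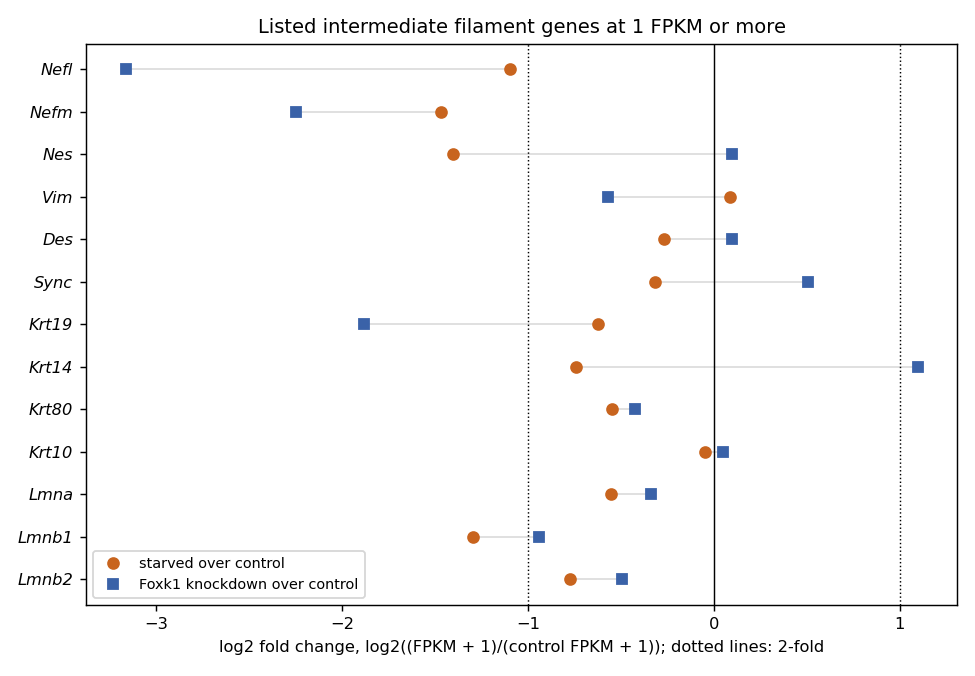
Log2 fold changes over the control (x axis) of the 5 expressed members, 5 further cytoplasmic filament genes and 3 lamin genes, in the starved (circles) and Foxk1 knockdown library (squares). Nefl, Nefm and Krt19 lie furthest left in the knockdown comparison, and Krt14 lies on opposite sides of 0.

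Proteins listed as linkers and anchors of filaments were set beside them, with the lipid phosphatase Mtm1 also on the list. Of 16 listed, 10 were expressed in the starved comparison, with 1 higher apart, 1 lower apart and a median of 0.27, beside 12.2% of all expressed rows higher apart and 10.9% lower apart. In the knockdown comparison 11 were expressed, with 4 higher apart, 0 lower apart and a median of 0.25, beside 8.89% and 7.13% of all expressed rows. The dystrobrevin gene Dtna, a synemin partner, was at 19.4 FPKM in the starved and 8.62 FPKM in the control library (log2 fold change 1.09). Vinculin (Vcl), an adhesion protein, was at 85.2 FPKM in the starved, 244.9 FPKM in the knockdown and 154 FPKM in the control library, apart from the control in opposite directions. Dst, a giant linker of filaments to other cytoskeleton (0.62), the junction protein gene Jup (0.44) and the nebulin gene Neb (0.71) were higher apart in the knockdown library. Neb reached 1 FPKM in that library alone and so had to be higher. Mtm1, at 1.55, 1.34 and 0.969 FPKM in the starved, knockdown and control libraries, entered both comparisons without reaching 1 FPKM in the control. Its intervals overlapped, and the knockdown median of 0.25 was its own fold change, so nothing is read from that median. Plectin (Plec), the main filament crosslinker, was at 86.5, 92.8 and 93.2 FPKM in the starved, knockdown and control libraries, with overlapping intervals.

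Chaperones and proteases of filaments were listed next. All 14 were expressed, with 3 lower apart in the starved library (median -0.26) and 2 lower apart in the knockdown library (median -0.10). None was higher apart in either. Of all expressed rows, 10.9% were lower and 12.2% higher apart in the starved library, and 7.13% and 8.89% in the knockdown library. Hspb1, a small heat shock protein that binds filaments, was at 700.4 FPKM in the starved, 723 FPKM in the knockdown and 1104 FPKM in the control library and was lower apart in both. The co-chaperone gene Bag3 (-0.44) was lower apart in the starved library, and the calpain gene Capn2 (-0.50) in the knockdown library. The intervals of the desmin chaperone gene Cryab and of Trim32, a ubiquitin ligase for desmin, overlapped in both comparisons. A further list held 13 genes, for kinases known to phosphorylate filaments and for the Cdk5 activator Cdk5r1. Of the 13, the mitotic kinase genes Plk1 (-0.94), Cdk1 (-0.88) and Aurkb (-0.72) were lower apart in the knockdown library. This stood beside 7.13% of all expressed rows, with a list median of 0.08. In the starved library Gsk3b alone was apart, higher at 0.47, with a list median of -0.08, beside 12.2% (higher) and 10.9% (lower) of all expressed rows.

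Transcription factors known to act on these genes were listed next. Of 14 expressed, starved cells had 4 higher apart and 4 lower apart (median 0.10), and knockdown cells had 5 higher apart and 0 lower apart (median 0.29). Over all expressed rows these shares were 12.2% (higher) and 10.9% (lower) in the starved library, and 8.89% and 7.13% in the knockdown library. Myod1, which commits cells to the myoblast fate, stood at 10.7 FPKM (8.49 to 12.8) in the starved, 95.8 FPKM (76.9 to 114) in the knockdown and 70.1 FPKM (57.6 to 82.3) in the control library. Myog, the differentiation factor, was at 6.02, 45.4 and 14.2 FPKM in the starved, knockdown and control libraries. The Des intervals overlapped throughout, though the starved mean of 403 FPKM lay below the lower control limit of 418 FPKM. Any part of Myod1 or Myog in the Des level was not tested. Srf, which binds CArG boxes, was lower apart in the starved library (-1.002) and higher apart in the knockdown library (0.48). Rest, a repressor of neuronal genes, was at 15.0, 19.2 and 13.8 FPKM in the starved, knockdown and control libraries, with overlapping intervals. Of factors linked to vimentin in mesenchymal cells, Snai2 (1.10 in the starved, 0.46 in the knockdown library) and Zeb1 (0.58 and 0.87) were higher apart in both, and Snai1 was lower apart in the starved (-0.94) and higher apart in the knockdown library (0.88).

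Muscle differentiation genes were higher in the knockdown library while the Des intervals overlapped. Of 14 expressed, 12 were higher apart and 0 lower apart (median 1.46), beside 8.89% and 7.13% of all expressed rows, among them the sarcomere genes Acta1 (2.40), Mylpf (1.94), Myl1 (2.05) and Tnnt1 (2.11), where Des was at 0.10. In the starved library 0 of 13 were higher apart and 1, Myog (-1.11), was lower apart (median -0.33), beside 12.2% and 10.9% of all expressed rows. Ckm entered the knockdown comparison through the knockdown library alone. Most markers of smooth muscle and fibroblasts were higher in the knockdown library as well. Of 7 expressed, 5 were higher apart and 0 lower apart (median 1.32), beside 8.89% and 7.13% of all expressed rows. The summed level of the list was 228 FPKM in the starved, 1769 FPKM in the knockdown and 476 FPKM in the control library. Most of each sum was Acta2 (110, 1321 and 333 FPKM in that order) and Tagln (44.8, 319 and 78.3 FPKM). Tagln (2.01), Acta2 (1.98), Dcn (1.54) and Pdgfrb (1.32) had the largest fold changes in the knockdown library. The Pdgfra (-0.06) and Col1a1 (0.52) intervals overlapped those of the control there, and Myh11, which defines mature smooth muscle, did not exceed 0.0144 FPKM. Of the same 7 in the starved library, 2 were higher apart and 3 lower apart (median -0.27), beside 12.2% and 10.9% of all expressed rows, with Acta2 at -1.59. Of 6 myoblast markers, starved cells had 1 higher apart (Myf5, 0.78) and 1 lower apart (Myod1, -2.60), and 0 were apart in the knockdown library, counts near the shares of all expressed rows (12.2% higher and 10.9% lower apart for starvation, 8.89% and 7.13% for the knockdown). The summed epithelial markers were at 3.70, 14.6 and 6.52 FPKM in the starved, knockdown and control libraries, nearly all of it Krt14, with Epcam listed at 0 in the starved library and no other marker of that list over 1 FPKM. The list does not hold Krt19, an epithelial keratin gene given above at 21.3, 8.30 and 33.3 FPKM, which was lower apart in both comparisons. All 5 endothelial markers were under 1 FPKM in every library, summing to 0.390, 0.223 and 0.283 FPKM. The part of these marker differences in the levels of the filament genes was not tested.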

How the data were processed

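RNA of 3 libraries, 1 per condition, was analysed, with groups taken from the sample titles. The deposited values are mean FPKM with 95% limits, per the file headers. Per the submitters' processing notes, the tools were Cufflinks 2.1.1, Cuffdiff, Bowtie2 2.1.0 and TopHat2 2.0.9, and mm9 was the build, with no roles stated. Not given in the sources used here are the annotation, the method behind the intervals, and whether a mean pools replicates. FPKM keeps no read counts, so the depth cannot be stated and a count model was not fitted. Of 22989 rows, 1 whose limits were in the wrong order (Zzz3) was left out. Values were used without rescaling. The members and the 14 gene lists were chosen with earlier results of these data known. Beside the members, Foxk1 and the nearest 5 rows of each, the genes named are up to 4 per list and comparison with the largest changes among those apart, and others picked after their values were seen; some listed genes are not reported here. Calls were checked on simulated data with 200 changed genes. These changes were all 4-fold, in rows at 5 FPKM or more in the control, with noise drawn from the deposited intervals. The check therefore says nothing about the spread between replicates. Promoter sequences come from RefSeq (GRCm38.p6). Computations used pandas 2.3.3, numpy 2.4.6, matplotlib 3.10.9 and Python 3.11.15.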

Additional observations from a re-analysis of the deposited data

How the results depend on the processing

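The members called 2-fold numbered 3 for starvation and 2 for the knockdown under pseudocounts of 0.1 and 5, no entry filter, an entry at 5 FPKM, upper quartile scaling and a 1.5-fold threshold. With equal summed FPKM they numbered 2 in the starved library, since Nefl came to a log2 fold change of -0.998, just short of 2-fold, and the share of higher rows among all calls was 62.2% in place of 51.0% (66.5% in place of 52.7% by intervals). Members apart stayed at 3 in each comparison with equal sums, and with an entry at 5 FPKM, which could not change them. Without an entry filter Synm, under 1 FPKM but higher apart in both comparisons, would be added to them. With the mean of each library outside the interval of the other as the rule, Des joined the starved count, giving 4. Of 56 alternative fold changes of single members 52 stayed within the range given by the interval ends and none reversed. Nefm in the knockdown library came to -1.54 with a pseudocount of 5. Without Vim in the sum, the neurofilament share was 10.3% in the starved, 1.81% in the knockdown and 14.9% in the control library. Over all rows, 2-fold calls numbered 698 for starvation and 461 for the knockdown, against 333 and 222 with a pseudocount of 5, 1034 and 707 with 0.1, and 2260 and 1585 at 1.5-fold. Rows apart numbered 2636 and 1820, against 4941 and 3949 with the mean rule. No paired analysis was possible because each condition has 1 library.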
